A study of Danio rerio with 24 samples.

Results

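The TCDD effect, averaged over the lines slincRosu3 and WT of zebrafish embryos, was estimated for 20907 of the 26347 genes of the count table. These were the genes left after a filter on low counts. The average rests on 16 of the 24 samples of the series, 8 TCDD and 8 control libraries, and the difference between the lines was removed with a line term. The account is mainly about the genes that passed in the average while passing in neither line within a fit of all 4 groups. TCDD (2,3,7,8-tetrachlorodibenzo-p-dioxin) is a persistent dioxin.

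RNA came from whole embryos. The 4 groups were slincRosu3 with TCDD, slincRosu3 control, WT with TCDD and WT control, with 4 libraries each. Embryos of slincRosu3 have a mutation made with CRISPR-Cas9 in slincR, a long intergenic noncoding RNA named after the gene sox9b, per the series title. TCDD was given at 1 ng/mL from 6 hours post fertilization, and embryos were taken at 48 hours post fertilization. The labels call the other groups controls and name nothing further that they received. Nothing in the labels says that the replicates came from separate clutches, so p-values measure the spread between these samples, which may be technical. The 8 samples of a further line, BigD, were not analysed here, and neither was slincR itself, which the table does not list under that name.

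TCDD binds the aryl hydrocarbon receptor (AHR), a ligand-activated transcription factor that pairs with ARNT and switches on genes of drug metabolism such as the cytochrome P450 gene cyp1a. In zebrafish embryos the receptor that mediates dioxin toxicity is encoded by ahr2, and the known outcomes include heart malformation, reduced blood flow and jaw cartilage defects.

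Total counts per library ran from 17275522 to 20100736, and 24778 to 25471 genes had at least 1 count. Values below are in CPM, TMM-scaled counts relative to library size, which compare a gene across libraries and not genes with each other. The treatment labels held in every library, since cyp1a stood at 856 to 1930 CPM with TCDD and at 2.75 to 5.32 CPM in controls. The tissue labels did too: muscle (ckma, 5070 to 9560 CPM), neurons (elavl3, 427 to 588), heart (myl7, 21.6 to 40.1) and endothelium (cdh5, 34.8 to 58.0) were present in each library. On the first principal component, with 29.8% of the variance, 4 libraries at the high end stood apart: WT TCDD 3, WT TCDD 4, slincRosu3 control 4 and WT control 4. They lay at 32.71, 35.49, 53.42 and 56.19 in that order, and WT control 1 was next at 18.06. On the other side, slincRosu3 control 2 lay at -39.96 and WT TCDD 2 at -35.35. The cut that sets the 4 libraries off was thus a choice. Results that rest on the 4 libraries are given with and without them.

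In the averaged effect 164 genes changed, 0.784% of the genes tested, at a Benjamini-Hochberg adjusted p under 0.05 in the quasi-likelihood test of edgeR. Of these 151 rose (0.722%) and 13 fell (0.0622%). Within slincRosu3 alone the same threshold took 80 genes (0.383%), 74 of them higher (0.354%), and within WT alone 68 (0.325%), 62 of them higher (0.297%). These per-line counts varied with the processing: they were 160 in slincRosu3 and 148 in WT with DESeq2's Wald test, and 170 and 327 without the 4 libraries that stood apart. Without those 4, the TCDD side of WT rested on WT TCDD 1 and WT TCDD 2 only, while slincRosu3 TCDD lost no library. Each line fitted on its own 8 libraries gave 98 genes in slincRosu3 and 26 in WT. All of these comparisons share their libraries. The 164 genes divided into 49 that also passed in both lines, 24 that also passed in slincRosu3 only, 13 that also passed in WT only, and 78 that passed in neither line, 0.373% of the genes tested. All 49 genes called in both lines rose.

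The 78 genes called in neither line were 70 that rose and 8 that fell. When the slincRosu3 libraries were fitted on their own, 10 of the 78 passed there by the same test. Their median change was 1.42-fold in either direction, with a range of 1.19-fold to 2.86-fold. In 48 of them the change was under 1.5-fold, and in 7 it was at least 2-fold. The 78 genes were not low in reads as a group: their median was 9.86 CPM, against 9.28 CPM for all genes tested, which does not compare amounts of transcript. The standard error (SE) of their log2 changes had a median of 0.101 for the average, against 0.146 in slincRosu3 and 0.146 in WT. Over all genes tested those medians were 0.121, 0.17 and 0.17.

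Each of the 78 moved the same way in both lines. All 8 TCDD libraries lay to one side of all 8 controls in 14 of them, as in 0.383% of the genes tested. The libraries of slincRosu3 did not overlap between treatments in 62 (4.72% of the genes tested), those of WT in 49 (3.05%), and neither line's did in 35 (0.636%). The choice of these genes used the same values, so nothing is read from these shares. The averaged line effect, slincRosu3 against WT, passed in 12 of the 78 and in 5.58% of the genes tested. In 76 of the 78 the unadjusted p of the TCDD effect was under 0.05 in both lines by edgeR, and in the other 2 it was so in WT alone. The genes were chosen by these same effects, so nothing is read from this count or from the shared direction. No share over all genes tested is given for either. The difference of the TCDD effects between the lines passed for 0 genes by edgeR's test at an adjusted p under 0.05, while 899 genes (4.3%) had an unadjusted p under 0.05. DESeq2's Wald test also called 0 genes different. None of the 78 was among the 899, but these genes were chosen for an average that both lines make up, so the count is a description. At the edges of the choice, ptgs2b was the last gene inside (averaged adjusted p = 0.0481 by edgeR) and ino80 the first outside (0.0509). The gene closest to a call in a single line was tcf15, at an adjusted p of 0.0503 in slincRosu3.

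**Figure D1:**
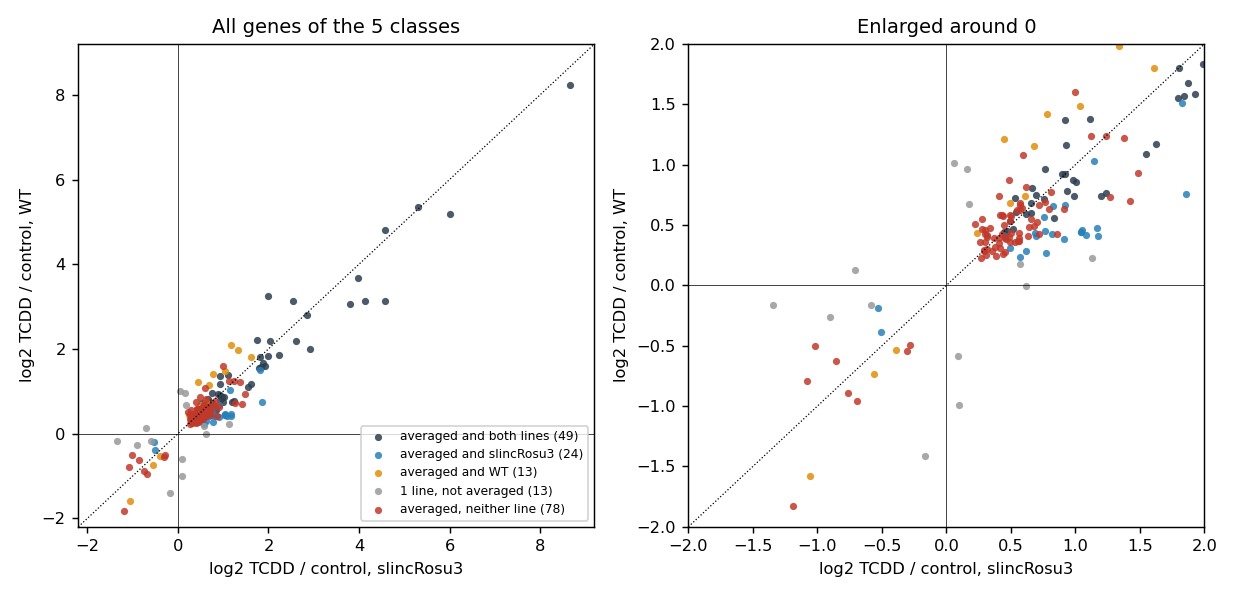
Log2 TCDD over control in slincRosu3 (horizontal) against WT (vertical) for the genes past edgeR's threshold in the averaged effect or in 1 line; each point is a gene, coloured by class, and the dotted line marks equal change. The 78 genes called in neither line lie close to the dotted line and mostly between 0 and 1, while the 13 genes called in 1 line but not in the average lie near an axis. The classes were set by these same values, so their places are a description.

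The count depends on single libraries. Without slincRosu3 TCDD 3 the genes called in neither line numbered 45, and without WT control 2 they numbered 51. Without WT control 4 they numbered 104. Without the 4 libraries that stood apart, the averaged effect called 346 genes and 133 were in neither line. In that setting 62 of the 78 genes still passed for the averaged effect. Of the 78 genes, 29 passed with any 1 of the 16 libraries left out, and 27 of those also passed without the 4 libraries. These 27 include acvrl1, admb, plvapa, vwf, thbs1b, nfe2l2a, nkd1, mmp14a, sgk1 and lyz, each described below.

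**Figure D2:**
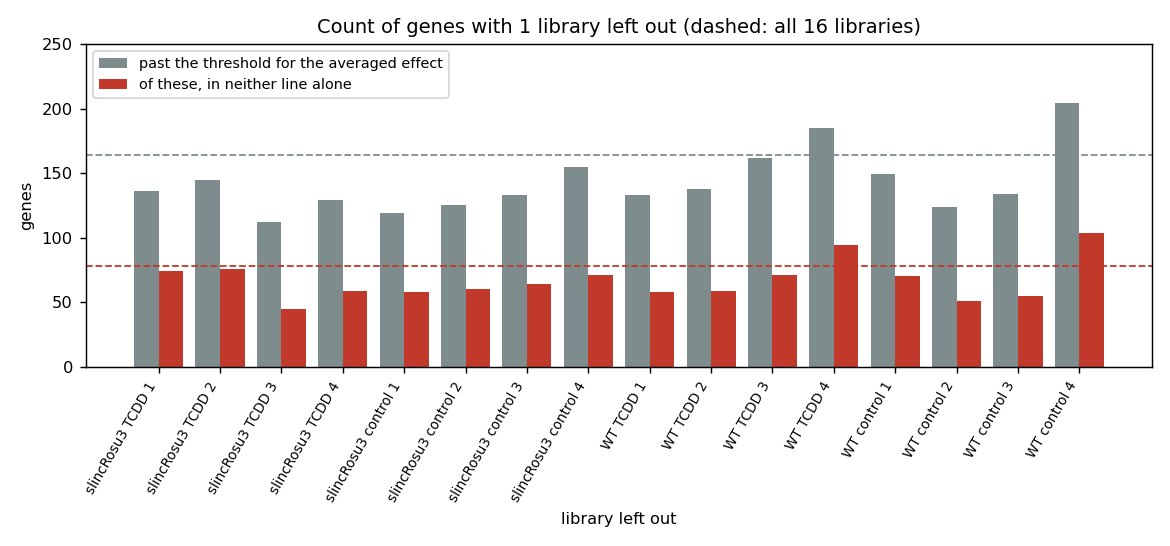
Number of genes past the threshold of edgeR's test for the averaged effect (grey) and of those in neither line alone (red), with 1 library left out at a time; dashed lines give the counts from 16 libraries, 164 and 78. The averaged count lay between 112 and 204 and the count in neither line between 45 and 104.

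The genes acvrl1, plvapa, vwf, thbs1b and admb rose and are given first. They were put together after their values were seen: plvapa alone is in the list of blood vessel endothelium, admb is in that of hypoxia, and the others are in no list. The gene acvrl1 (ENSDARG00000018179) encodes ALK1, an endothelial receptor for BMP ligands whose loss causes vessel malformations. It had 26, 24.1, 25.3 and 25.3 CPM in slincRosu3 TCDD, against 19.3, 16.7, 20 and 19.8 CPM in slincRosu3 control. In WT TCDD it had 23.4, 27.2, 25.1 and 28.2 CPM, against 18, 18.6, 19.5 and 23.1 CPM in WT control. All 8 TCDD libraries lay above all 8 controls, as 76 of the genes tested did (0.364%). Its rise was 1.32-fold (log2 0.40, SE 0.0668, adjusted p = 0.00303 by edgeR), with adjusted p of 0.102 in slincRosu3 and 0.145 in WT.

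The gene plvapa (ENSDARG00000076972) encodes a plasmalemma vesicle protein of endothelial pores and caveolae. It had 3.46, 2.7, 4.23 and 3.60 CPM in slincRosu3 TCDD, against 1.01, 1.72, 2.53 and 1.16 CPM in slincRosu3 control. The WT TCDD libraries had 2.81, 3.21, 2.42 and 2.83 CPM, against 0.897, 0.837, 1.56 and 1.49 CPM in WT control. The libraries did not overlap within either line, and slincRosu3 control 3 (2.53 CPM) lay above WT TCDD 3 (2.42 CPM). The rise was 2.26-fold (log2 1.17, SE 0.188, adjusted p = 0.00199 by edgeR). Its paralog plvapb (ENSDARG00000045003) fell 1.36-fold, with 20.5 to 26.6 CPM in the 8 TCDD libraries, against 27.6 to 38.9 CPM in the 8 controls, which did not overlap (adjusted p = 0.000724 by the same test).

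The gene vwf (ENSDARG00000077231) encodes von Willebrand factor, the platelet-tethering glycoprotein that endothelial cells store. It had 3.28, 3.08, 4.17 and 3.49 CPM in slincRosu3 TCDD, against 1.75, 1.15, 1.00 and 1.1 CPM in slincRosu3 control. Values in WT TCDD were 2.98, 3.57, 1.24 and 1.1 CPM, against 1.07, 1.31, 1.04 and 1.24 CPM in WT control. The WT TCDD libraries 3 and 4, which stood apart on the first component, were thus at the control level. The averaged rise was 2.32-fold (log2 1.22, SE 0.231, adjusted p = 0.0115 by edgeR), and without the 4 libraries the log2 change was 1.47 (adjusted p = 0.000121).

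The gene thbs1b (ENSDARG00000010785), for thrombospondin, a matrix glycoprotein that restrains vessel growth, showed a like split within WT TCDD. It had 212, 195, 195 and 190 CPM in slincRosu3 TCDD, against 150, 146, 163 and 121 CPM in slincRosu3 control. WT TCDD libraries stood at 220, 215, 156 and 167 CPM, against 125, 139, 140 and 130 CPM in WT control. The rise was 1.39-fold (log2 0.48, SE 0.079, adjusted p = 0.00291 by edgeR). The gene admb (ENSDARG00000069027), for the vasodilator peptide adrenomedullin, had 5.12 to 6.94 CPM with TCDD (median 5.36), against 2.75 to 4.36 CPM in controls (median 3.41). All 8 TCDD libraries were above all 8 controls, and the rise was 1.66-fold (log2 0.73, SE 0.116, adjusted p = 0.00187).

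General endothelial genes had changes near 0. Of 33 genes listed as blood vessel endothelium, plvapa rose, plvapb and cxcl12b (a chemokine gene) fell, and 30 did not pass, with a median log2 change of -0.00429. The fall of plvapb was also called in slincRosu3, and that of cxcl12b in WT. The median over all genes tested was -0.000658. The junction gene cdh5 and the VEGF receptor gene kdrl each had a log2 change of -0.01, and the transcription factor gene fli1a one of 0.01. The summed level of the list was 821 to 885 CPM in slincRosu3 TCDD and 785 to 893 CPM in WT TCDD, against 825 to 935 CPM in slincRosu3 control and 805 to 981 CPM in WT control. In RNA of whole embryos, fewer cells of a type and less RNA per cell cannot be told apart.

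**Figure D3:**
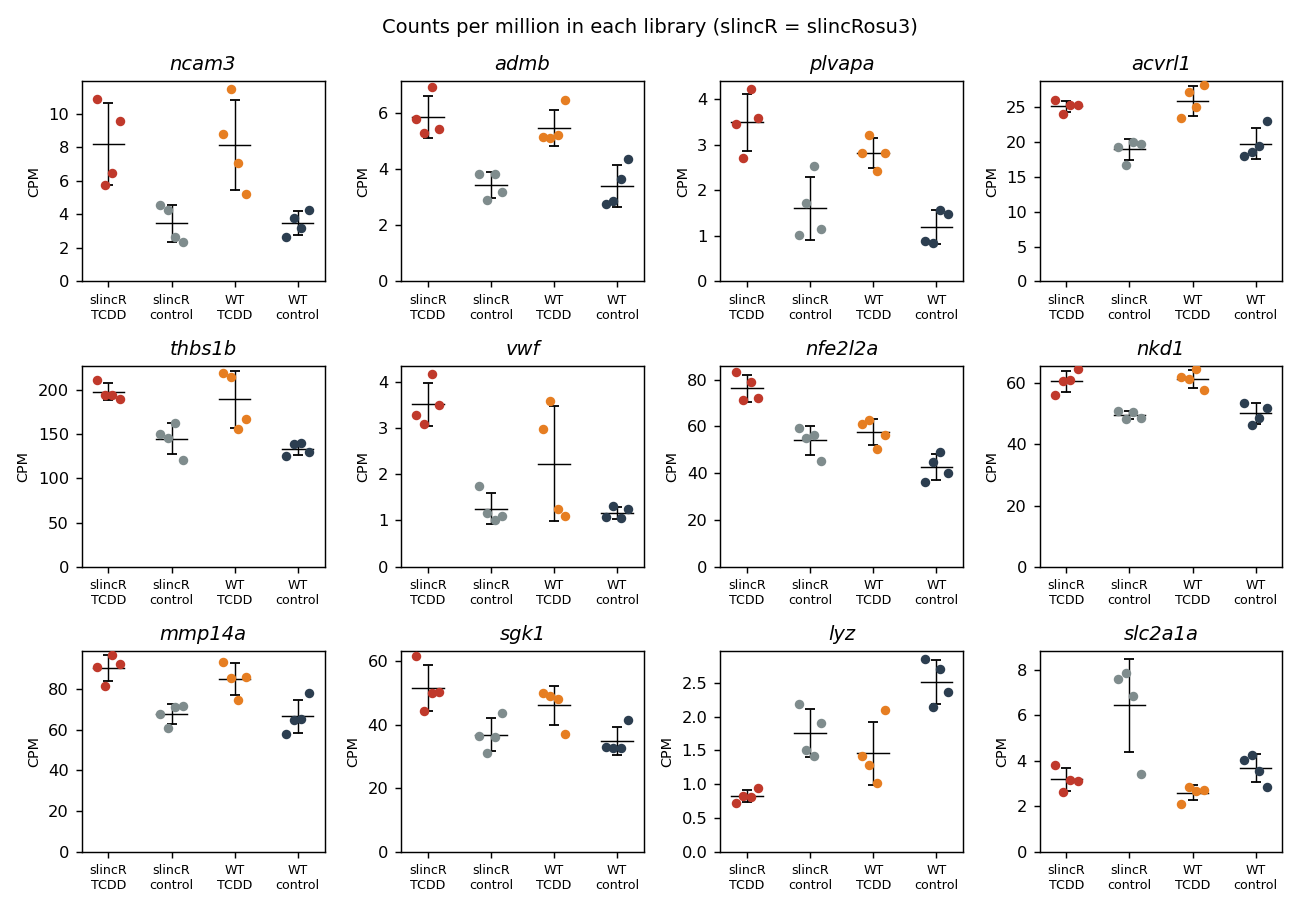
CPM of 12 genes called in the averaged effect and in neither line, on linear axes from 0; each point is a library, the long bar the mean of 4 libraries and the whiskers the SD. For acvrl1, ncam3, admb and nkd1 all TCDD points lie above all control points, in vwf and thbs1b a pair of the WT TCDD points lies lower than the other two, and lyz and slc2a1a run the other way.

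Among genes of the antioxidant response, nfe2l2a (ENSDARG00000042824) rose. It is the main zebrafish gene for Nrf2, the transcription factor that induces antioxidant enzymes. It had 83.4, 71.2, 78.8 and 72.1 CPM in slincRosu3 TCDD, against 59.3, 54.9, 56.5 and 45.2 CPM in slincRosu3 control. Under TCDD, WT libraries had 61.0, 62.7, 50.1 and 56.3 CPM, against 36.4, 44.6, 49.2 and 40.2 CPM in WT control. The groups did not overlap within either line, although slincRosu3 control reached the level of WT TCDD. The rise was 1.38-fold (log2 0.47, SE 0.0758, adjusted p = 0.00235 by edgeR).

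Of 28 Nrf2 and antioxidant genes, 4 rose and none fell, against 0.722% and 0.0622% of the genes tested. The others were the paralog nfe2l2b, 3.25-fold higher and called in both lines, and the glutathione transferase gene gstp1 (1.48-fold) and heme oxygenase gene hmox1a (1.76-fold), both also called in slincRosu3. The list's median log2 change was 0.0953. The glutathione synthesis genes gclc and gclm had log2 changes of 0.03 and -0.01. A gene for an organizer of NADPH oxidase, noxo1a, a source of superoxide, had 4.52 to 12.5 CPM with TCDD, against 2.5 to 4.6 CPM in controls, with the highest values in WT TCDD 1 and 2. It rose 1.79-fold (adjusted p = 0.0202 by edgeR), a call that was lost without WT control 3 (adjusted p = 0.0569).

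In the list of AHR target genes 12 of 16 rose, against 0.722% of the genes tested, with a median log2 change of 2.64. This list and all the other lists were chosen with earlier results of these data known, so their counts are descriptions. Each count stands beside 0.722% higher and 0.0622% lower over all genes tested. None of the 12 belonged to the genes called in neither line. The receptor gene ahr2 rose 1.82-fold and was called in both lines.

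In the lists of signalling pathways the members that rose included the inhibitor genes nkd1, il17rd and fstb. The gene nkd1 (ENSDARG00000020053) encodes a feedback inhibitor of Wnt signalling. It had 56.1 to 64.7 CPM with TCDD (median 61.2), against 46.2 to 53.7 CPM in controls (median 49.7), with no overlap. The libraries of a treatment lay close together, and a rise of 1.22-fold passed (log2 0.29, SE 0.0513, adjusted p = 0.00549 by edgeR). Of 40 Wnt genes 3 rose, nkd1 and the secreted inhibitor genes notum1b (1.59-fold) and dkk1a (1.67-fold), and sfrp2, another secreted Wnt modulator, fell 1.28-fold. Both dkk1a and sfrp2 were also called in slincRosu3 (log2 1.04 and -0.53) and not in WT (log2 0.44 and -0.19). The differences between the lines had unadjusted p of 0.0378 and 0.0269 by edgeR, and an adjusted p of 0.996 each. The median log2 change of the list was 0.0773, and the Wnt target gene axin2 stood at 0.03. The call of dkk1a was lost without slincRosu3 TCDD 3, slincRosu3 control 1 or slincRosu3 control 2 (adjusted p up to 0.0524), and that of sfrp2 with any 1 of 10 libraries left out and without the 4 libraries that stood apart (adjusted p = 0.0601).

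In the Fgf pathway, il17rd, also known as Sef, an inhibitor of Fgf receptor signalling, had 29.3 to 35.9 CPM with TCDD (median 33.5), against 21.4 to 31.9 CPM in controls (median 25.5). Its rise of 1.29-fold passed (adjusted p = 0.0245 by edgeR), and did not with any 1 of 8 libraries left out (adjusted p up to 0.0713). Without the 4 libraries that stood apart il17rd passed (adjusted p = 0.00584). It was the 1 gene of 29 in the Fgf list that passed. In that list 26 of 29 log2 changes were above 0, with a median of 0.169, against a median near 0 for all genes. Among them were those of the Fgf-induced genes spry1 (0.30), dusp6 (0.28) and etv4 (0.29), with adjusted p of 0.128, 0.192 and 0.261 by edgeR. These are examples above the list's median, and the other members are not given. The summed level overlapped between treatments, with 1030 to 1160 CPM in slincRosu3 TCDD and 976 to 1030 CPM in slincRosu3 control. It was 962 to 1140 CPM in WT TCDD, against 960 to 1140 CPM in WT control.

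In BMP signalling, fstb, for follistatin, an extracellular inhibitor of activin and BMP ligands, had 12.1 to 18.8 CPM with TCDD, against 8.13 to 12.9 CPM in controls. It rose 1.41-fold (adjusted p = 0.0193 by edgeR), and the call was lost without slincRosu3 TCDD 3 or WT control 2 (adjusted p up to 0.0581). It was the 1 gene of 37 in the list of BMP and TGF-beta genes that passed. The ligand gene bmp4, counted in the heart list, had 28.9 to 40.3 CPM with TCDD (median 37.0), against 25.7 to 33.6 CPM in controls (median 27.5), and rose 1.27-fold (adjusted p = 0.0389). The bmp4 call was lost with any 1 of 12 libraries left out and in the fit of 4 groups (adjusted p = 0.0518). Without the 4 libraries that stood apart bmp4 passed (log2 0.458, adjusted p = 0.000926 by edgeR).

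In the Hedgehog list 2 of 19 genes rose, boc, for a co-receptor of Hedgehog ligands, and foxf2b, a forkhead gene of jaw and vessel mesenchyme. The level of foxf2b was 8.35 to 10.7 CPM with TCDD, against 6.28 to 8.04 CPM in controls, with no overlap (1.3-fold, adjusted p = 0.0306 by edgeR). Its paralog foxf2a rose 2.06-fold and was called in both lines. The level of boc was 132 to 161 CPM with TCDD, against 115 to 135 CPM in controls, the smallest change among the 78 at 1.19-fold (adjusted p = 0.029). Each of these calls was lost with any 1 of several libraries left out (9 for foxf2b, 8 for boc), and that of foxf2b also without the 4 libraries that stood apart (adjusted p = 0.0602). The reporter gene of the pathway gli1 had a log2 change of -0.04. A feedback inhibitor of the EGF receptor, errfi1a, named after its values were seen, rose 1.24-fold (adjusted p = 0.0181) and passed in 14 of 16 leave-outs.

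Genes for matrix enzymes and secreted proteins also rose. The membrane-type metalloproteinase gene mmp14a (ENSDARG00000002235) had 90.6, 81.5, 96.5 and 92.1 CPM in slincRosu3 TCDD, against 67.5, 60.9, 71.3 and 71.5 CPM in slincRosu3 control. In WT TCDD it had 93.3, 85.1, 74.4 and 86.0 CPM, against 57.9, 64.8, 65.4 and 77.8 CPM in WT control. The slincRosu3 libraries separated by treatment, whereas WT control 4 lay above WT TCDD 3, both among the libraries that stood apart. The rise was 1.3-fold (log2 0.38, SE 0.0686, adjusted p = 0.00708 by edgeR), and the log2 change was 0.47 without the 4 libraries (adjusted p = 0.00133).

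Of the 21 genes of the matrix list 2 rose, mmp14a and mamdc2b, and the median log2 change was 0.0444. The rise of mamdc2b was 5.25-fold and was called in both lines. The paralog mmp14b had a log2 change of 0.07 and the gelatinase gene mmp2 one of 0.16. The gene igfbp7, for a secreted binding protein of the insulin-like growth factor family, had 36.9 to 55.9 CPM with TCDD (median 43.5), against 24.6 to 37.9 CPM in controls (median 29.4). Libraries of the same line did not overlap, and the rise was 1.5-fold (log2 0.59, SE 0.101, adjusted p = 0.00428 by edgeR).

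A few further secreted or matrix proteins are named after their values were seen. The connective tissue growth factor gene ctgfa had 81.7 to 139 CPM with TCDD, against 51.8 to 99.8 CPM in controls, with the highest control value in WT control 4 and the lowest TCDD values in WT TCDD 3 and 4. It rose 1.53-fold (adjusted p = 0.024 by edgeR), and the log2 change of 0.61 became 0.84 without the 4 libraries that stood apart (adjusted p = 0.000517). With 1 library left out it passed in 8 of 16 cases. Its paralog ctgfb rose 4.31-fold and was called in both lines. Smaller rises were seen for mmp17b, another membrane-type metalloproteinase gene (1.52-fold), the angiopoietin-like gene angptl7 (1.36-fold) and the collagen triple helix repeat gene cthrc1a (1.26-fold). Of these mmp17b and angptl7 passed in all 16 leave-outs and cthrc1a in 5, and cthrc1a did not pass in the fit of 4 groups (adjusted p = 0.0507).

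Of 19 genes listed as responsive to glucocorticoids or as their receptors, 3 rose, against 0.722% of the genes tested. All 3 were called in neither line, against 0.373% of the genes tested. The kinase gene sgk1 (ENSDARG00000025522), named for its induction by serum and glucocorticoids, had 61.5, 44.4, 50 and 50.3 CPM in slincRosu3 TCDD, against 36.3, 31.1, 36.0 and 43.7 CPM in slincRosu3 control. The WT TCDD libraries had 49.9, 49.1, 48.0 and 37.0 CPM, against 32.9, 32.7, 32.5 and 41.3 CPM in WT control. The groups separated within slincRosu3, and in WT the number 4 libraries were the reverse of the others. The rise was 1.36-fold (log2 0.44, SE 0.0894, adjusted p = 0.0185 by edgeR) and 0.59 on the log2 scale without the 4 libraries that stood apart (adjusted p = 0.000587).

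The gene pck1, for phosphoenolpyruvate carboxykinase, the first committed enzyme of gluconeogenesis, had 100, 106, 153 and 121 CPM in slincRosu3 TCDD, against 42.7, 33.6, 43.8 and 59.3 CPM in slincRosu3 control. Values in WT TCDD were 97.7, 105, 76.8 and 85.7 CPM, against 20.6, 54.3, 44.4 and 105 CPM in WT control. WT control 4 alone among the controls was at the TCDD level. The averaged rise was 2.09-fold (log2 1.06, SE 0.236, adjusted p = 0.0376 by edgeR), was lost with any 1 of 12 libraries left out, and was 1.48 on the log2 scale without the 4 libraries that stood apart (adjusted p = 0.000376). The third gene, tsc22d3 (ENSDARG00000075666), encodes GILZ, a glucocorticoid-induced leucine zipper protein, and rose 1.3-fold (adjusted p = 0.0341), also lost with any 1 of 12 libraries. Without the 4 libraries that stood apart tsc22d3 passed (adjusted p = 0.00315 by edgeR). A second gene under that symbol, below 1 CPM, had a log2 change of -0.20. The receptor gene nr3c1 had one of 0.14 and fkbp5 one of 0.39, with adjusted p of 0.605 and 0.956. The list's median was 0.169.

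Among genes of inflammation and immune cells the movement was in both directions. The gene lyz (ENSDARG00000057789), for lysozyme of neutrophils and macrophages, had 0.716, 0.826, 0.813 and 0.941 CPM in slincRosu3 TCDD, against 2.18, 1.51, 1.42 and 1.91 CPM in slincRosu3 control. WT TCDD libraries stood at 1.41, 1.29, 1.02 and 2.1 CPM, against 2.86, 2.14, 2.7 and 2.36 CPM in WT control. Within each line every TCDD library was below every control library. It fell 1.89-fold (log2 -0.92, SE 0.163, adjusted p = 0.0056 by edgeR).

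In the same list of 21 neutrophil and inflammation genes 4 rose: mmp13a (3.2-fold) and mmp9 (1.81-fold), for matrix metalloproteinases, the cytokine gene il1b (3.19-fold) and ptgs2b, for a cyclooxygenase of prostaglandin synthesis (1.64-fold). Of these ptgs2b was called in neither line, with 3.53 to 6.33 CPM with TCDD, against 2.26 to 3.87 CPM in controls (adjusted p = 0.0481 by edgeR), and it passed in 3 of 16 leave-outs but not in the fit of 4 groups (adjusted p = 0.0596). The rise of il1b was also called in WT and not in slincRosu3 (adjusted p = 0.788 by edgeR). It rests on few reads, at 0.433 to 2.06 CPM with TCDD, against 0.211 to 0.373 CPM in controls. Its highest values were in WT TCDD 1 and 2 (2.06 and 1.81 CPM). The myeloperoxidase gene mpx, which marks neutrophils, had a log2 change of -0.30 (adjusted p = 0.24 by edgeR), and the leukocyte genes lcp1 and coro1a ones of -0.11 and -0.08. Most of the list went the other way: 14 of 21 log2 changes were above 0 and 7 below, with a median of 0.0859. The list's summed level was 183 to 206 CPM in slincRosu3 TCDD and 175 to 182 CPM in WT TCDD, against 155 to 206 CPM in slincRosu3 control and 152 to 207 CPM in WT control. The part of a change in cell number in the fall of lyz was not tested.

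The genes csf1b, ackr4b and, named after its values were seen, il20ra rose. The gene csf1b, for a ligand of the macrophage growth factor receptor that also acts on pigment cells, had 7.33 to 10.1 CPM with TCDD (median 8.04), against 4.37 to 7.07 CPM in controls (median 5.53), with no overlap. It rose 1.5-fold (log2 0.59, SE 0.105, adjusted p = 0.00673 by edgeR). The gene il20ra, for a cytokine receptor subunit, had 6.94 to 8.40 CPM with TCDD, against 4.17 to 6.59 CPM in controls, again with no overlap (1.38-fold, adjusted p = 0.0113). The scavenging chemokine receptor gene ackr4b rose 1.43-fold (adjusted p = 0.0233), which did not pass with any 1 of 7 libraries left out (adjusted p up to 0.0627).

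The 8 genes that fell in neither line alone rest on fewer reads than those that rose, with a median of 2.32 CPM against 11.4 CPM. Besides lyz, those with a gene name were grna, slc2a1a, slc4a2a, fam212aa and spi2, the last of which did not pass without the 4 libraries that stood apart (adjusted p = 0.167). The gene grna, a progranulin family member, had 1.41 to 2.89 CPM with TCDD (median 2.21), against 2.51 to 4.53 CPM in controls (median 4.06), and fell 1.68-fold (adjusted p = 0.0104 by edgeR). The glucose transporter gene slc2a1a had 2.11 to 3.82 CPM with TCDD (median 2.79), against 2.86 to 7.87 CPM in controls (median 4.14), and the control values of 6.84 and above were all in slincRosu3. It fell 1.71-fold (adjusted p = 0.0323), a call lost with any 1 of 10 libraries left out. Without the 4 libraries that stood apart it passed (log2 -1.018, adjusted p = 0.000899 by edgeR).

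The gene slc4a2a, for an anion exchanger, had 13.5 to 24.3 CPM with TCDD, against 19.7 to 28.0 CPM in controls (1.31-fold lower, adjusted p = 0.024 by edgeR), a call lost with any 1 of 8 libraries left out. The gene fam212aa had 11.8 to 20 CPM with TCDD, against 20.6 to 27.6 CPM in controls, and was the 1 gene of the 8 without overlap over all 16 libraries, as 4 of the genes tested were in this direction (0.0191%). It fell 1.34-fold (adjusted p = 0.0376), and the call was lost with any 1 of 12 libraries left out. In the hypoxia list of 32 genes, which holds slc2a1a, 2 genes rose and slc2a1a fell, with a median log2 change of 0.067. The rises were in admb and egln1a, an oxygen-sensing prolyl hydroxylase gene that was 1.74-fold higher and did not pass with any 1 of 12 libraries left out (adjusted p up to 0.097). Without the 4 libraries that stood apart egln1a passed (adjusted p = 0.00785 by edgeR). Its rise was also called in slincRosu3 (log2 1.18) and not in WT (log2 0.41). The unadjusted p of that difference was 0.025 and the adjusted p 0.996.

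The smallest adjusted p among the 78 was that of ncam3 (ENSDARG00000089586), of the neural cell adhesion molecule family. It had 10.9, 5.78, 6.50 and 9.58 CPM in slincRosu3 TCDD, against 4.57, 4.27, 2.63 and 2.37 CPM in slincRosu3 control. Under TCDD, WT libraries had 8.77, 11.5, 7.09 and 5.20 CPM, against 2.64, 3.76, 3.17 and 4.29 CPM in WT control. TCDD libraries spread over more than 2-fold and still lay above all controls. The rise was 2.35-fold (log2 1.23, SE 0.189, adjusted p = 0.00119 by edgeR) and nearly the same in both lines, with adjusted p of 0.0661 in slincRosu3 and 0.0849 in WT.

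Transcription factor genes were also among the rises. The basic helix-loop-helix gene atoh8 had 27.4 to 31.8 CPM with TCDD (median 28.9), against 18.7 to 27.2 CPM in controls (median 21.6), with no overlap, and rose 1.34-fold (adjusted p = 0.00267 by edgeR). The leucine zipper gene tsc22d1, first described as induced by TGF-beta, had 86.6 to 110 CPM with TCDD, against 63.8 to 84.4 CPM in controls, again with no overlap, and rose 1.29-fold (adjusted p = 0.00302). Named after their values were seen, the mesodermal gene twist3 rose 1.51-fold, the leucine zipper gene hlfa 1.42-fold, the somite gene tcf15 1.56-fold and the craniofacial homeobox gene alx1 1.35-fold. Of these twist3 and hlfa passed in all 16 leave-outs, tcf15 in 6 and alx1 in 4, and alx1 did not pass without the 4 libraries that stood apart (adjusted p = 0.0811).

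Metabolic and structural genes complete the named rises. The lipid droplet gene plin6 had 4.82 to 7.82 CPM with TCDD, against 2.26 to 4.89 CPM in controls, and rose 1.71-fold (log2 0.77, adjusted p = 0.00741 by edgeR). Without the 4 libraries that stood apart its log2 change was 0.632 and did not pass (adjusted p = 0.0759). The actin-binding coronin gene coro2bb rose 2-fold (adjusted p = 0.015), at 1.21 to 2.60 CPM with TCDD, against 0.625 to 1.43 CPM in controls. The red cell ammonium transporter gene rhag (1.25-fold, adjusted p = 0.0412), the pigment cell gene aox5 (1.25-fold, 0.0288) and the retinol-binding gene rbp7b (1.45-fold, 0.0414) passed less firmly. Their calls were lost with any 1 of 14, 9 and 15 libraries left out, and those of rhag and rbp7b also in the fit of 4 groups (adjusted p = 0.0531 for each). The call of rbp7b was lost in DESeq2's Wald test, without the filter and without the 4 libraries as well.

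**Figure D4:**
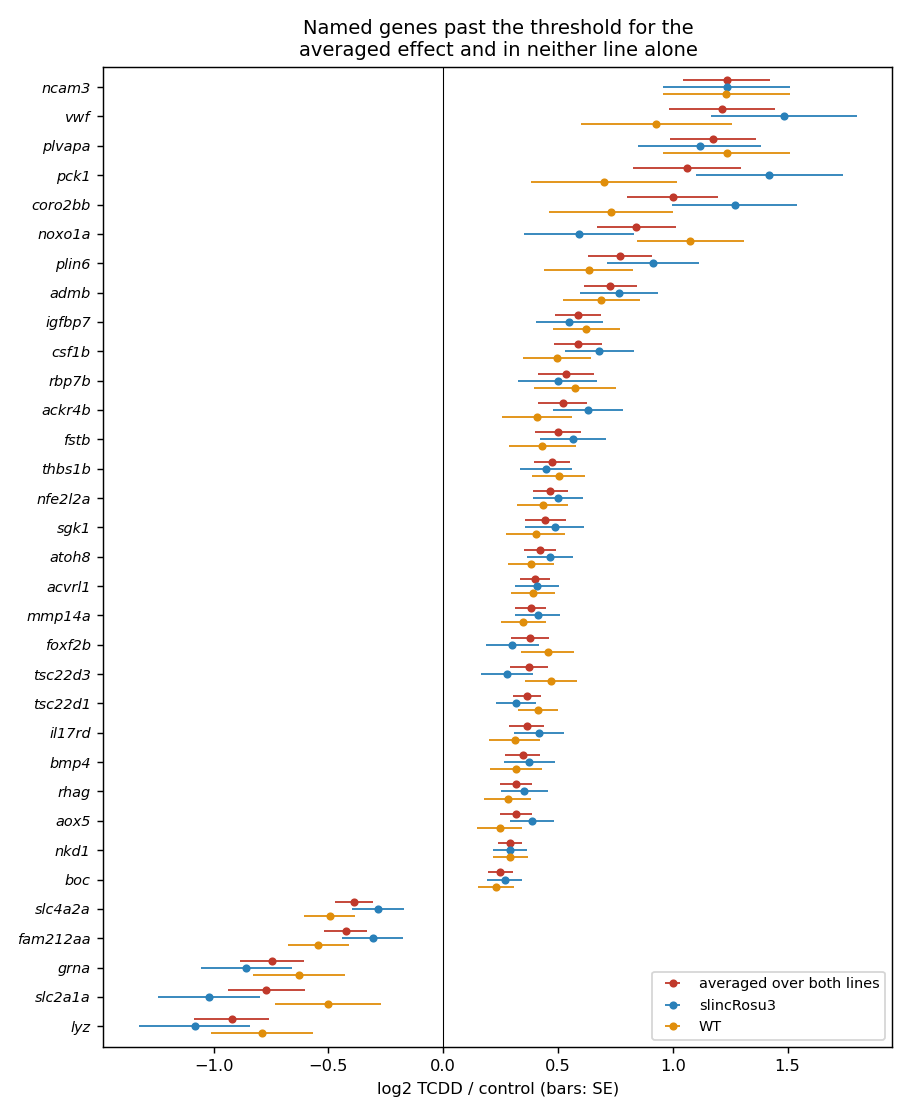
Log2 TCDD over control for the 33 named genes called in the averaged effect and in neither line, as the average (red), in slincRosu3 (blue) and in WT (orange); points are estimates and bars 1 SE. The averaged estimate lies near the middle of the per-line estimates with a shorter bar, from 1.23 for ncam3 to -0.92 for lyz, and all 3 estimates of a gene lie on the same side of 0. The genes were chosen by these same estimates, and an average of both lines lies between them, so nothing is read from this pattern.

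Of the 78 genes, 22 belonged to one of the 43 gene lists and 56 to none. The lists hold 1212 symbols found in the table of 26347 genes. They were chosen with earlier results of these data known, so nothing is read from the 22. In 17 lists no member passed the averaged test. The largest of these was the cell cycle list, in which 0 of 51 genes passed while 50 of 51 log2 changes were below 0, with a median of -0.269. The median over all genes tested was -0.000658. The mean log2 level of the list, centred per gene, was highest in WT control 1 (0.692), and slincRosu3 control 3 (-0.247) lay among the TCDD libraries. The summed level was 2890 to 3660 CPM in slincRosu3 TCDD and 3110 to 3920 CPM in WT TCDD, against 3190 to 4690 CPM in slincRosu3 control and 3640 to 6230 CPM in WT control. The proliferation marker mki67 had a log2 change of -0.42 (adjusted p = 0.215) and the replication clamp gene pcna one of -0.26 (adjusted p = 0.824). With 1 library left out, the median lay between -0.314 and -0.179.

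Lists for muscle, skin, neurons, lens and yolk or liver proteins had no member past the threshold, with medians of -0.0113, 0.0167, 0.0758, -0.0516 and 0.056. In the photoreceptor list the per-line medians were of opposite sign, -0.296 in slincRosu3 and 0.275 in WT, and the averaged median was -0.0292. The difference between the lines was not tested for the list.

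**Figure D5:**
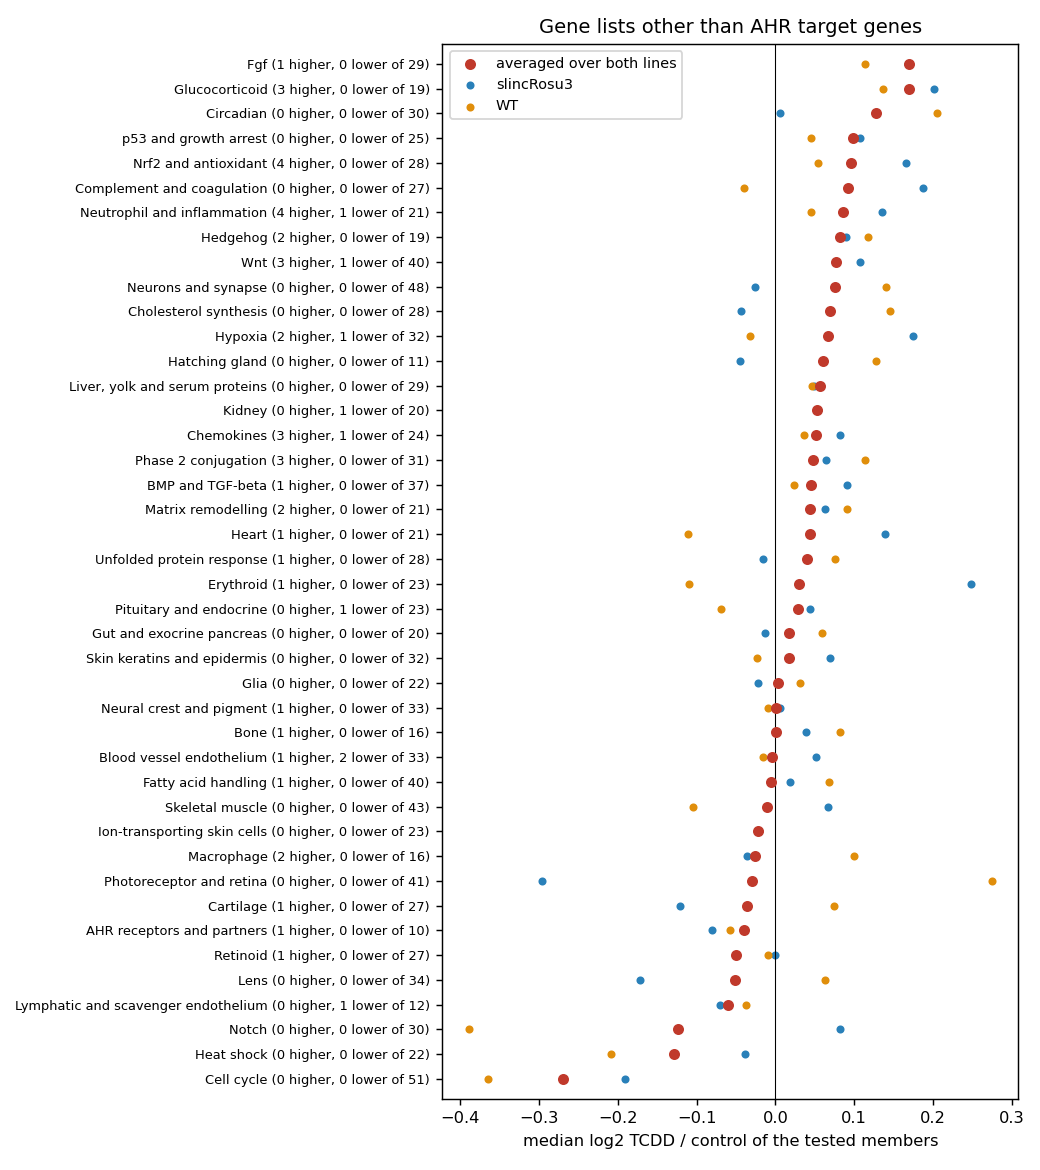
Median log2 TCDD over control of the tested members of 42 gene lists, averaged over both lines (red) and in slincRosu3 (blue) and WT (orange), with the counts of members past edgeR's threshold for the averaged effect beside each name. Averaged medians run from -0.269 for the cell cycle to 0.169 for the Fgf and glucocorticoid lists; AHR target genes, at 2.64, are off the scale and not drawn.

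Averaging did not bring every gene of known interest past the threshold. The cartilage and neural crest transcription factor gene sox9b (ENSDARG00000043923), which gives slincR its name, had 98.0, 78.1, 58.4 and 83.0 CPM in slincRosu3 TCDD, against 99.9, 103, 99.2 and 132 CPM in slincRosu3 control. In WT TCDD it had 67.1, 57.8, 131 and 102 CPM, against 155, 134, 112 and 159 CPM in WT control. All TCDD libraries of slincRosu3 were below its controls, and in WT the library TCDD 3 lay within the control range. The averaged log2 change was -0.55 (SE 0.149, adjusted p = 0.134 by edgeR). It passed without WT TCDD 3 alone (-0.65, adjusted p = 0.0371), without the 4 libraries that stood apart (adjusted p = 0.0376) and by DESeq2's Wald test (adjusted p = 0.0311). Its paralog sox9a had a log2 change of 0.02.

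Finally, 13 genes passed in 1 line and not in the average. Among them cfd, for complement factor D (averaged log2 -0.37, adjusted p = 0.096 by edgeR), and fabp11b, for a fatty acid binding protein (-0.58, adjusted p = 0.0964), did pass in the average taken from the fit of 4 groups (adjusted p = 0.0436 and 0.0448). So did ggact.2, cldn23a and ENSDARG00000082084 (adjusted p = 0.0219, 0.0374 and 0.0375 by edgeR in that fit). In the model of line plus treatment, the genes other than cfd and fabp11b were at averaged adjusted p of 0.0758 to 0.625. The carotenoid oxygenase gene bco1 was an example, with an averaged log2 change of 0.30. Its change was 0.61 in slincRosu3 and -0.01 in WT. The difference between the lines had an unadjusted p of 0.000786 and an adjusted p of 0.996 by edgeR's test.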

How the data were processed

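The authors deposited raw counts per Ensembl gene for 16 libraries, with genes of zero and low counts removed, per the file headers and the table's name. A column that was deposited as estimated counts, judging from its decimals, held 1 value that was not whole, which was rounded. HISAT2, STAR, DESeq2 and the build GRCz11 are named in the submitters' processing notes. Versions, counting program, annotation and strand handling are not given in the sources used here, so reads of overlapping or antisense genes may be mixed, and near-identical genes are uncertain. A further 94 columns of per-sample values were not used, because they hold counts of single read files or carry a name that no label explains. No coordinates or sequences are given.

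Counts were tested with edgeR 4.0.16 in R 4.3.3: filterByExpr by the 4 groups, TMM, a model of line plus treatment (13 residual degrees of freedom), the two-sided quasi-likelihood F test and Benjamini-Hochberg adjustment over 20907 genes, threshold 0.05. TCDD effects within each line and their difference came from a fit of 4 groups (12 degrees of freedom), so a call in neither line refers to that fit. SE is the log2 change divided by the square root of F. Symbols were the authors' for 21149 genes, came from a gene name table for 3623, and were missing for 1575. No pair of libraries within a group was identical. The scripts were tested on simulated data.

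Members and lists were chosen with earlier results of these data known. Named were, among genes called in neither line with a gene name and 1 CPM or more on average in the higher treatment, the 12 of smallest p and the 6 of largest fold in each direction. Added were up to 3 called members per list and direction, and a fixed set of AHR genes, sox9a, sox9b and prl. This gave 67 genes, some of which are left out. Paralogs of named genes, hmox1a, il20ra, spi2 and the examples of genes called in 1 line were named after their values were seen. Alternatives were DESeq2 1.42.0 size factors and Wald test, no filter, the fit of 4 groups, the replicate number as a block, leaving out libraries, and single lines. A few genes are not reported here.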

Additional observations from a re-analysis of the deposited data

Results flagged for a closer look

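In each group of 4 libraries, the highest or lowest value of a named gene was marked where its gap to the nearest other value took up more of the group's range than Dixon's 95% critical value for 4 samples. Of 268 gene and group pairs 11 were marked (4.1%), and chance marks about 1 in 20 groups. No cause was tested.

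Several were in libraries that stood apart on the first principal component. In WT TCDD 4, admb stood at 6.46 CPM (others 5.12 to 5.21), sgk1 at 37.0 CPM (48.0 to 49.9) and rhag at 156 CPM (172 and above). In WT TCDD 3, the homeobox gene msx2b stood at 25.3 CPM (19.4 to 19.8). In WT control 4, sgk1 stood at 41.3 CPM (32.5 to 32.9). In slincRosu3 control 4, sox9b stood at 132 CPM (99.2 to 103) and sox9a at 22.2 CPM (47.6 to 51.0), so the paralogs differed in opposite directions in that library.

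Elsewhere, dkk1a was low in slincRosu3 TCDD 2, at 3.36 CPM (3.68 to 3.71), and in WT TCDD 1, at 2.27 CPM (2.95 to 3.06). The gene aox5 was high in slincRosu3 TCDD 2, at 69.4 CPM (66.0 to 66.2). The glucuronosyltransferase gene ugt1a1 was high in WT control 2, at 11.9 CPM (6.96 to 7.65).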

How the results depend on the processing

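The count of genes in the averaged effect, 164, became 270 with DESeq2's Wald test and 346 without the 4 libraries that stood apart, of which 144 were among the 164. It was 98 from the slincRosu3 libraries alone and 26 from the WT libraries alone. With 1 library left out it lay between 112 and 204. The count in neither line, 78, became 108 with DESeq2's Wald test, 83 with each line called in a fit of its own and 133 without the 4 libraries. It lay between 45 (without slincRosu3 TCDD 3) and 104 with 1 library left out, at 51 without WT control 2. The cause of these shifts was not tested. With DESeq2 size factors, no filter or the fit of 4 groups, the counts were 163 to 168 and 74 to 81. A term for the 4 libraries, added after the data were seen, gave 218 and 81. No sign changed among the 78 genes in any setting. Over the pairs of a named gene and a setting, the call was lost in 262, kept its side of the threshold in 1405 and was gained in 4. These pairs include the fits of a single line, where genes chosen for passing in neither line were likely to lose their call. The difference between the lines was called for 0 named genes in every setting that gave it. Over all genes tested it was called for 1 with the term for the 4 libraries and for 20 without those libraries. In that last setting the TCDD side of WT rested on WT TCDD 1 and WT TCDD 2 only.

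Whether replicate numbers pair libraries is not stated. Across 24 same-numbered pairs the correlation of deviations ran from -0.276 to 0.676, 16 were over 0.1, and 12 of 16 libraries correlated best with their own number. With the replicate number as a block the counts were 176 and 77. Of the 164 genes 11 lost their call, 8 of them among the 78, and of those named in the text these were bmp4, egln1a, sfrp2, rbp7b, ptgs2b and cthrc1a. Depth was similar in all libraries, and genes near 1 CPM, such as lyz and coro2bb, rest on few reads.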
